A study of Arabidopsis thaliana with 8 samples.

Results

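The genes examined are 43 Arabidopsis genes of the cell cycle and of DNA replication, chosen by function among the 21960 genes measured in leaves, and all 43 are in the tables. They comprise 25 genes that act around mitosis, 13 genes of DNA synthesis (S phase), the 3 D3-type cyclins, which act at the entry into the cycle (G1), and 2 genes of chromosome structure, the centromeric histone CENH3 and topoisomerase TOPII. They were chosen by a rule of function with the log2 changes against Col-0 in view. Counts, medians and false discovery rates (FDR) are therefore given as a description of where these genes lie among all genes, and they support no statement about the list.

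Leaves were sampled at 4 weeks from plants under long days (16 h light, 8 h dark), and total RNA was sequenced. The 4 genotypes were Col-0 wild type, the *constans* mutant *co-SAIL*, and the transgenic lines *35S::miP1a* and *35S::miP1b*, all in the Col-0 ecotype and untreated. The lines *35S::miP1a* and *35S::miP1b* overexpress FLAG-tagged microProteins from the 35S promoter, which is active in most plant cells, and each stands for its construct with 1 line. Each genotype had 2 libraries, described for the series as technical replicates, so that genotype and plant pool cannot be told apart and the errors given below may be technical only. The tables hold 1 value per genotype. Reads per gene were recovered from them for both libraries together, and the errors follow from counting and from the dispersion of 0.0133 that the tables imply (a coefficient of variation of 11.5%).

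The depth was 31602031 to 35786879 effective reads per genotype, in which 3 reads correspond to 0.0838 to 0.0949 CPM, that is, counts scaled to equal depth. The libraries labelled *35S::miP1a* held 125301 reads of *miP1a* against 24 in Col-0, and those labelled *35S::miP1b* held 35460 reads of *miP1b* against 3. For *CO* (AT5G15840) 170 reads were found in Col-0 and 176 where the label is *co-SAIL*, so the read number does not set the mutant apart, and directions given for *co-SAIL* are those of the libraries labelled so. *FT* (AT1G65480), the target of CO, had 333 reads in Col-0, 19 in *co-SAIL*, 0 in *35S::miP1a* and 1 in *35S::miP1b*. The small subunit genes of Rubisco, which define photosynthetic leaf tissue, held 71723 to 794799 reads each. Of the shoot meristem markers, *KNAT1* and *KNAT2* had at most 2 reads in any genotype and *STM*, *WUS* and *CLV3* were not listed. Of the 6 flower markers *LFY* was not listed, and the other 5 together came to 0.419 to 0.696 CPM.

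The cell cycle is driven by cyclin-dependent kinases (CDKs), whose partner proteins, the cyclins, are made and destroyed once per cycle. D3-type cyclins act at the decision to divide, A3-type cyclins around DNA synthesis, and A1-, A2- and B-type cyclins with the plant-specific B-type CDKs around mitosis. In leaves, cells divide early, and most later replicate DNA without dividing (endoreduplication), while dispersed stomatal precursors keep dividing for longer. S-phase genes are known targets of E2F transcription factors, and many genes of late G2 phase and mitosis carry the M-specific activator (MSA) element, which is bound by MYB3R transcription factors.

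The share of genes with each of these sequence words upstream differed between the classes. In the 300 bases upstream of the gene start of 42 of the 43 genes in the RefSeq TAIR10.1 annotation, both strands were searched for the MSA core AACGG, for the E2F-type words TTTCCCGC, TTTGGCGC, TTTCGCGC and TTTGCCGC, and for site II, TGGGCC, which is known from the promoters of replication and ribosomal protein genes. None of these words contains another. The MSA core was found upstream of 17 of the 25 mitotic genes (68.0%), of 2 of the 13 S-phase genes, and of 23.4% of all 27443 protein-coding genes. At least 2 matches were found upstream of 9 mitotic genes (36.0%) and of 4.53% of all genes. An E2F-type word was found upstream of 5 of the 13 S-phase genes, *MCM2* to *MCM6*, but upstream of 0 of the 25 mitotic genes, and 1.57% of all genes had one. Site II was found upstream of 8 S-phase genes, of *CYCB1;1* among the mitotic genes, and of 14.6% of all genes. A match is a description of the letters and does not show a bound site.

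**Figure D1:**
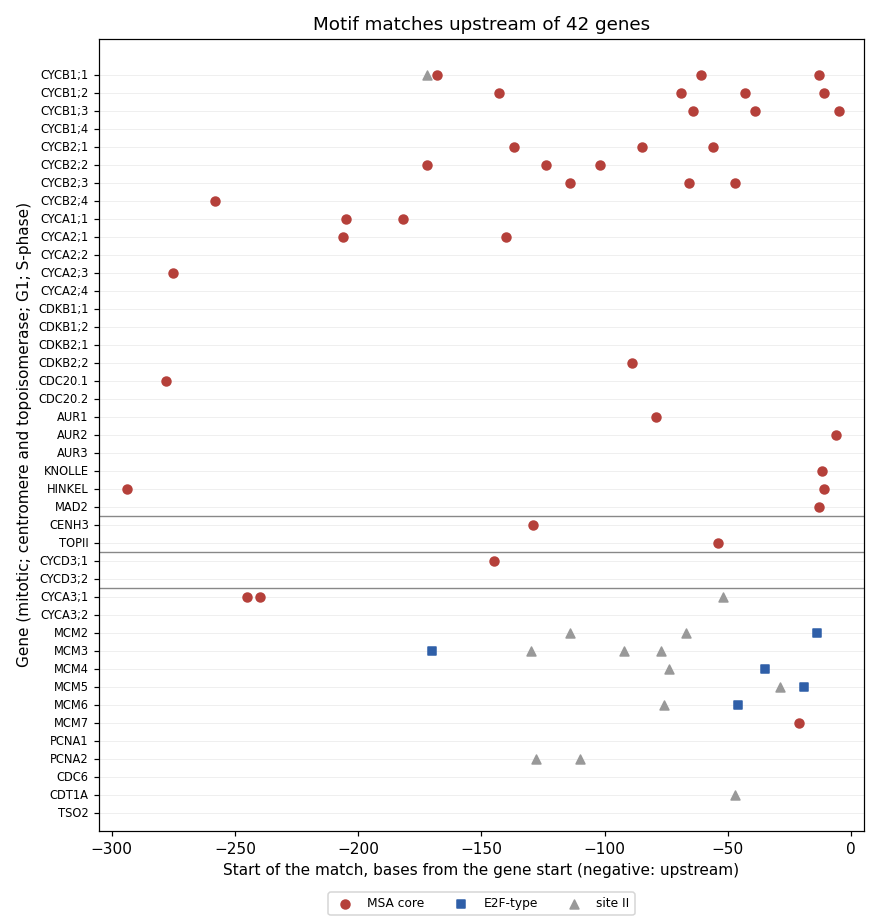
Start of each motif match upstream of 42 genes, as distance in bases from the gene start (x axis), with 1 line per gene (y axis). Circles stand for the MSA core, squares for E2F-type words and triangles for site II, and grey lines separate mitotic, chromosome, G1 and S-phase genes. Circles lie mostly in the mitotic lines (17 of 25 genes) and squares only at MCM2 to MCM6.

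The upstream windows of 4 genes that the results turn on are shown 5′ to 3′ on the strand of the gene, from RefSeq TAIR10.1. The B-type cyclin *CYCB1;2* (AT5G06150, chr5:1861704-1862003, minus strand), *KNOLLE* (chr1:2711001-2711300, minus strand) and *HINKEL* (chr1:6324379-6324678, minus strand) stand for mitotic genes that were lower in a microProtein line, and capitals mark the MSA core, read as CCGTT where it lies on the other strand. *MCM2* (chr1:16969914-16970213, plus strand) stands for the replication genes with little change, and capitals there mark the E2F-type word.
AT5G06150: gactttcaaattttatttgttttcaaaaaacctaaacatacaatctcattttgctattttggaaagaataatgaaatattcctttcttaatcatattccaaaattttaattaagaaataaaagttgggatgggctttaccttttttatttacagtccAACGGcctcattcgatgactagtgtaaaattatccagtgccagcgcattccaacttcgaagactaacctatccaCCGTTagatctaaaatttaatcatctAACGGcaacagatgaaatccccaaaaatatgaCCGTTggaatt
KNOLLE: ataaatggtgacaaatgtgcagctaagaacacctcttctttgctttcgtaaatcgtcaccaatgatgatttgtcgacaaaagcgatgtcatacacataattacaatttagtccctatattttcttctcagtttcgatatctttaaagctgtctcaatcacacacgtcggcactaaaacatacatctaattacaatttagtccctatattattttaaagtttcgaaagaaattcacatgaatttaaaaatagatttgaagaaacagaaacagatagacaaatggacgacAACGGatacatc
HINKEL: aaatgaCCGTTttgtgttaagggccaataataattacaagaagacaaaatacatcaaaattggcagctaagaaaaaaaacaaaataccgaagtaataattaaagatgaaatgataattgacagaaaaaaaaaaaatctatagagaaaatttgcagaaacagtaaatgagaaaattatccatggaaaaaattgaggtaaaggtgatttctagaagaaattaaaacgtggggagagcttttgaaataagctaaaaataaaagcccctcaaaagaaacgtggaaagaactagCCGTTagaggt
MCM2: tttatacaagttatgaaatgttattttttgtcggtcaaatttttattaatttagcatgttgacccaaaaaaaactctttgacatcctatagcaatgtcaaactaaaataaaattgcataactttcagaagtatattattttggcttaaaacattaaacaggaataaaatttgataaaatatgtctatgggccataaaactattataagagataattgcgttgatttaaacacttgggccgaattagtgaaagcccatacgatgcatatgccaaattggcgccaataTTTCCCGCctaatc
AT5G06150 has 4 matches to the MSA core, *HINKEL* has 2 and *KNOLLE* has 1, which starts 12 bases before the gene. The single match upstream of *CDC20.1* starts at position -278, in a window that overlaps the neighbouring gene AT4G33280. *CDC20.2* and *AUR3* had no match.

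The level per length of these genes spanned several orders of magnitude in the leaf. In RPKM, which divides reads by depth and exon length, averaged over the 4 genotypes, the S-phase genes ranged from 1.31 (*CDC6*) to 130 (*TSO2*), with a median of 7.44. The mitotic genes ranged from 0.0723 (an A2-type cyclin, AT5G25380) to 4.96 (*KNOLLE*), with a median of 0.544. The D3-type cyclins had a median of 5.30, and *CENH3* was at 1.25. A mean of at least 1 CPM was reached by 31 of the 43 genes. The lowest, *CYCA2;1* (AT5G25380), had 3, 4, 8 and 4 reads in Col-0, *co-SAIL*, *35S::miP1a* and *35S::miP1b*, and a B2-type cyclin, AT2G17620, had 7, 4, 6 and 4, so that a change of these could not be detected at this depth unless it was large. Where 4 read numbers are given without genotypes, they follow this order.

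**Figure D2:**
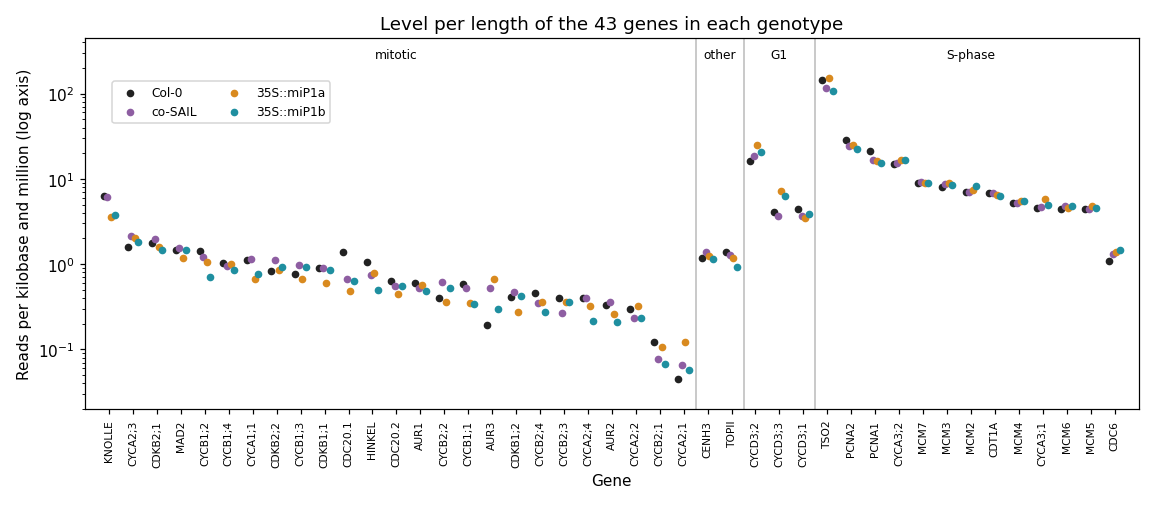
Level of the 43 genes in RPKM (y axis, log scale) in Col-0, co-SAIL, 35S::miP1a and 35S::miP1b, with genes ordered by mean level within each class (x axis) and 1 point per genotype. S-phase genes (median 7.44) lie above most mitotic genes (median 0.544), and the genotypes are spread further apart among mitotic genes such as CDC20.1 than among the MCM genes. Mitotic genes have fewer reads, with an SE of the log2 change in co-SAIL of up to 1.11, against at most 0.20 for the MCM genes. Counting error alone widens their spread, so the spreads of the classes cannot be compared here.

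The comparisons with Col-0 ask how the cell cycle genes stood in leaves of the *constans* mutant and of the lines that overexpress a microProtein. In both microProtein lines most mitotic genes lay below Col-0, whereas most S-phase genes did not. The 25 mitotic genes summed to 42.2 CPM in Col-0, 40.8 in *co-SAIL*, 32.5 in *35S::miP1a* and 31.2 in *35S::miP1b*. Relative to Col-0 that is 96.7%, 77.1% and 74.0%. In the same order of genotypes, the cytokinesis genes *KNOLLE* and *HINKEL* held 12.5, 11.1, 7.62 and 6.94 CPM of these sums. *CDC20.1* with *CDC20.2* held 4.12, 2.47, 1.88 and 2.37 CPM. Much of the fall in the sums thus came from few genes, and the sums do not show a fall of the whole class. In *35S::miP1a*, 20 of the 25 mitotic genes were below Col-0, with a median log2 change of -0.30. In *35S::miP1b*, 18 of 25 were below it, also with a median of -0.30, and in *co-SAIL* 14 of 25, with a median of -0.02. Over all genes with at least 1 CPM, 49.5% (*co-SAIL*), 51.3% (*35S::miP1a*) and 49.5% (*35S::miP1b*) lay below Col-0, with medians between -0.01 and 0.00. The 3 comparisons share the Col-0 libraries.

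The 13 S-phase genes had median log2 changes of 0.01 in *co-SAIL*, 0.08 in *35S::miP1a* and 0.05 in *35S::miP1b*, with 4, 4 and 5 of 13 below Col-0. The median of the mitotic genes therefore lay 0.03, 0.38 and 0.35 below that of the S-phase genes on the log2 scale. Summed CPM of the S-phase genes came to 88.2%, 103.5% and 85.4% of Col-0, a sum that held 181 to 261 CPM of *TSO2* alone. Without *TSO2* the other 12 genes came to 97.7%, 100.3% and 98.2%. In bulk leaf RNA, fewer cells in a phase and less RNA per cell cannot be told apart.

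Few single genes were called. At an FDR below 0.001 by the negative binomial likelihood ratio test over all 21960 genes, 0 of the 43 genes were called in *co-SAIL*. There 0.988% of all genes were lower and 0.187% higher. In *35S::miP1a* *CDC20.1* was lower, beside 1.44% of all genes lower and 1.98% higher. In *35S::miP1b* *HINKEL* was lower, beside 3.7% of all genes lower and 0.984% higher. In *co-SAIL* 2 of the 43 lower and 1 higher had an unadjusted p under 0.05 by this test. Of all 21960 genes, 1582 lower and 1059 higher had one. At an FDR below 0.05 the lower genes numbered 1 in *co-SAIL* (background 2.34%), 2 in *35S::miP1a* (4.59%) and 4 in *35S::miP1b* (8.09%). The higher genes numbered 0 (0.76%), 3 (5.14%) and 1 (4.49%). These shares of the 43 genes are close to the background, so the calls by themselves do not set these genes apart. The study asked for a 4-fold change beside the FDR of 0.001, and with that minimum 0 of the 43 genes were called in each comparison.

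**Figure D3:**
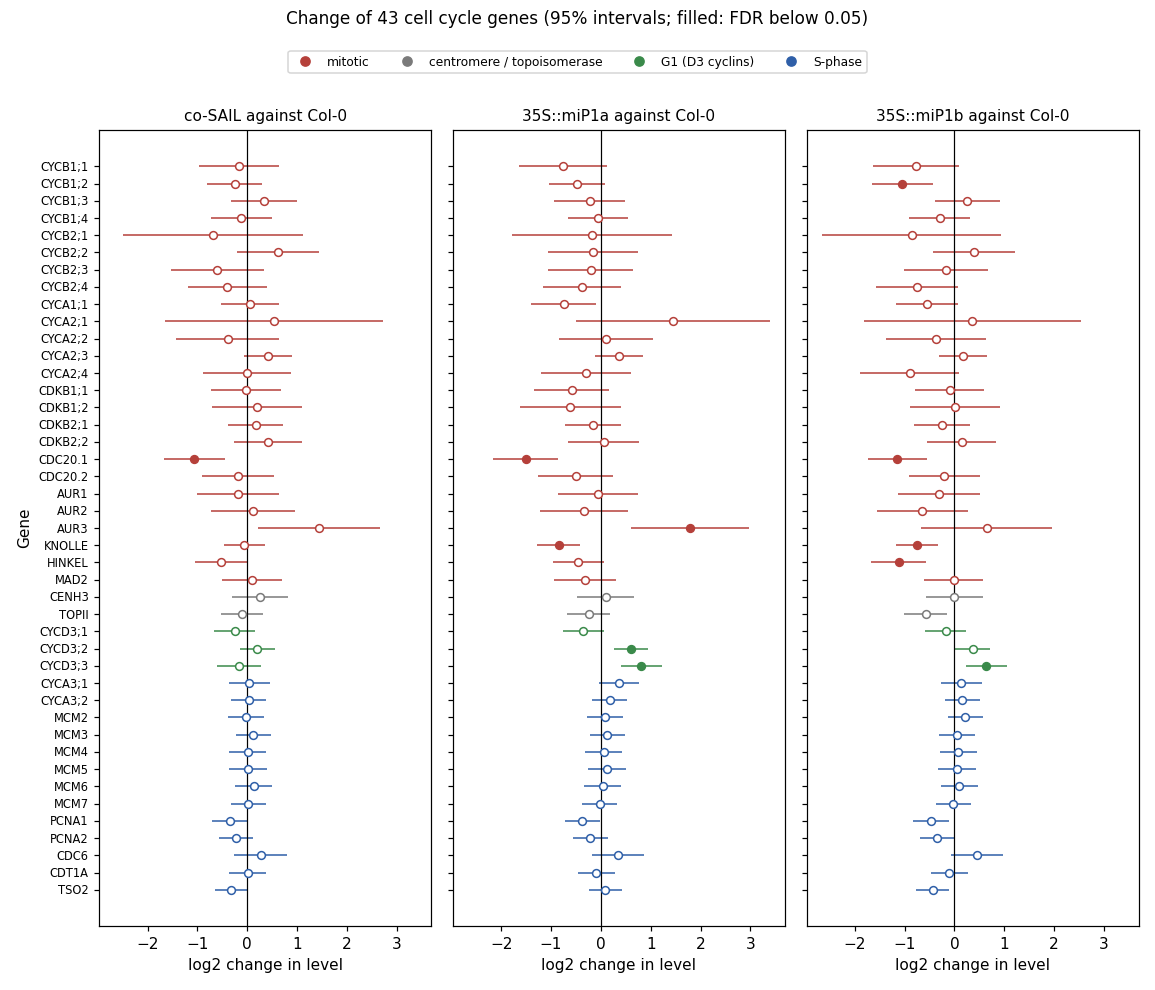
Log2 change of each of the 43 genes (y axis) against Col-0 (x axis) in co-SAIL, 35S::miP1a and 35S::miP1b, with 95% intervals from the count model. Filled points have an FDR below 0.05 over all genes, and colours give the class. Mitotic genes in the microProtein lines lie mostly left of 0 (20 and 18 of 25), the S-phase genes lie within 0.5 of 0 in all 3 panels, and the D3-type cyclin CYCD3;3 (AT3G50070) lies to the right in both microProtein lines.

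The activators of the anaphase-promoting complex, which destroys cyclins at the end of mitosis, included the gene with the lowest FDR against Col-0. *CDC20.1* (AT4G33270, TAIR10.1 chr4:16044169-16046937, minus strand, 5 exons) had 100 reads in Col-0, 44 in *co-SAIL*, 34 in *35S::miP1a* and 47 in *35S::miP1b*. All 3 genotypes were below Col-0. The log2 change was -1.51 ± 0.33 (SE) in *35S::miP1a* (2.84-fold lower, FDR 9.4e-05), -1.15 ± 0.30 in *35S::miP1b* (FDR 0.0023) and -1.06 ± 0.31 in *co-SAIL* (FDR 0.021). The call in *35S::miP1a* at an FDR below 0.001 ended with larger dispersions, at an FDR of 0.0092 with 0.04 and 0.740 with 0.16. The 3 genotypes did not differ from each other at an FDR below 0.05, and the interval of *35S::miP1a* against *co-SAIL* ran from -1.17 to 0.28. *CDC20.2* (AT4G33260) lies next to *CDC20.1* on the same strand and had 42, 34, 29 and 38 reads, with log2 changes of -0.18 ± 0.37, -0.51 ± 0.39 and -0.21 ± 0.36.

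Of the 50-base windows of *CDC20.1* 33.2%, and of those of *CDC20.2* 36.3%, occur elsewhere in the genome, 615 windows in each gene. Where they occur was not recorded, and the reads of each gene are uncertain. Summed as 1 gene, the pair was lower by a log2 change of -1.13 ± 0.27 in *35S::miP1a* (FDR 0.00084), -0.80 ± 0.26 in *35S::miP1b* (FDR 0.0202) and -0.74 ± 0.26 in *co-SAIL*, where it was not called (FDR 0.105). *CDC20.1* made up 70.4% of the reads of the pair in Col-0 (95% Wilson interval 62.5 to 77.3%) and 54.0 to 56.4% in the other genotypes, with intervals that overlap that of Col-0. Intervals of shares cover counting error only. Their overlap does not show that the shares are equal, and the difference in share was not tested.

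The cytokinesis genes, which act when the cell plate is built, include *KNOLLE*, the mitotic gene with the highest level per length, and their summed level was lower in the microProtein lines. *KNOLLE* (AT1G08560, chr1:2709525-2711000, minus strand, 2 exons), a syntaxin needed for vesicle fusion at the cell plate, had 305 reads in Col-0, 269 in *co-SAIL*, 165 in *35S::miP1a* and 187 in *35S::miP1b*. Col-0 and *co-SAIL* were high and both microProtein lines low. The log2 change was -0.85 ± 0.22 in *35S::miP1a* (FDR 0.0023), -0.75 ± 0.21 in *35S::miP1b* (FDR 0.0060) and -0.06 ± 0.21 in *co-SAIL* (FDR 0.992). The direct comparison with *co-SAIL* gave -0.79 ± 0.22 for *35S::miP1a* (FDR 0.0064) and -0.70 ± 0.22 for *35S::miP1b* (FDR 0.0215). These 4 differences of the microProtein lines are below an FDR of 0.05 and none is below 0.001. Of the exon bases of *KNOLLE*, 33.5% are overlapped by AT1G08550 (*NPQ1*) on the opposite strand, with 7298, 7178, 6334 and 9102 reads in the same order. Whether counting used strand is not given in the sources used here, so reads of the 2 genes may be mixed. *NPQ1* had log2 changes of 0.10 ± 0.17, -0.16 ± 0.17 and 0.27 ± 0.17 and was not called.

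*HINKEL* (AT1G18370, chr1:6319450-6324378, minus strand, 15 exons), a kinesin that is required for the cell plate to expand, had 128 reads in Col-0, 81 in *co-SAIL*, 91 in *35S::miP1a* and 61 in *35S::miP1b*. Col-0 was highest and *35S::miP1b* lowest. The log2 change was -1.12 ± 0.28 in *35S::miP1b* (2.17-fold lower), with an FDR of 0.0009998, just under the threshold of 0.001, and an FDR of 0.048 with a dispersion of 0.04 and 1 with 0.16. It was -0.45 ± 0.26 in *35S::miP1a* (FDR 0.308) and -0.52 ± 0.26 in *co-SAIL* (FDR 0.391). The difference between *35S::miP1b* and *35S::miP1a*, -0.67 ± 0.29, was not called (FDR 0.189). Together *KNOLLE* and *HINKEL* came to 88.3% of Col-0 in *co-SAIL*, 60.8% in *35S::miP1a* and 55.4% in *35S::miP1b*.

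**Figure D4:**
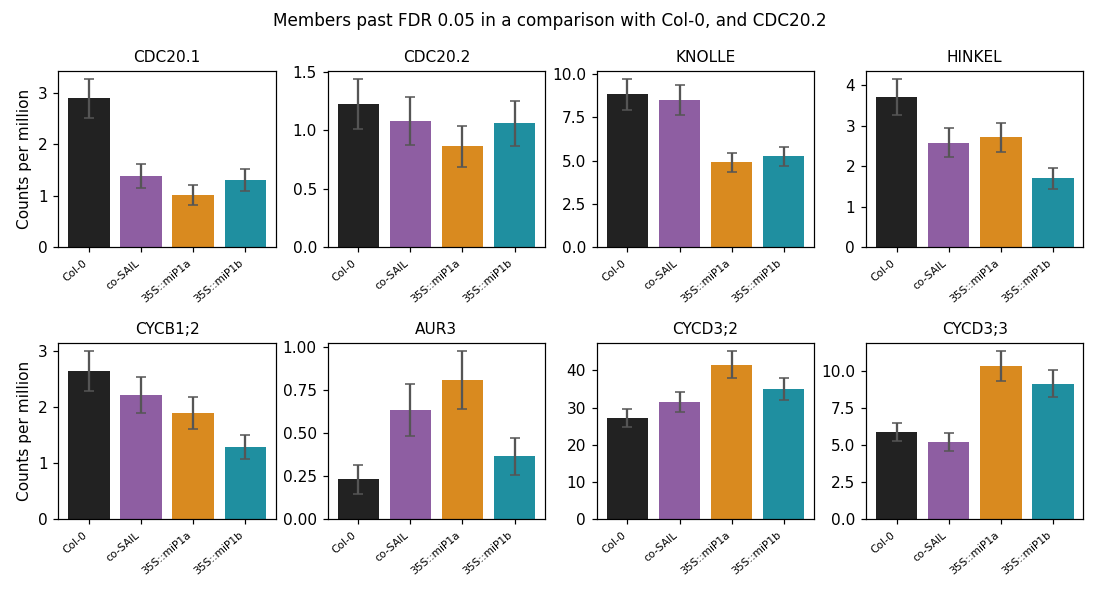
CPM of 8 genes in the 4 genotypes, the 7 with an FDR below 0.05 in a comparison with Col-0 and CDC20.2, with bars for both libraries together and error bars of 1 SE from the count model. CDC20.1 falls from 2.90 CPM in Col-0 to 1.02 in 35S::miP1a, KNOLLE from 8.83 to 4.91, and the D3-type cyclin AT3G50070 rises from 5.87 to 10.3.

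The B-type cyclins, the partners of CDKs at the entry into mitosis, lay below Col-0 in 8 of 8 cases in *35S::miP1a* and in 6 of 8 in *35S::miP1b* and *co-SAIL*, with medians of -0.21, -0.53 and -0.21. Of these, *CYCB1;2* (AT5G06150, chr5:1859279-1861703, minus strand, 5 exons) was called at an FDR below 0.05. It had 91 reads in Col-0, 70 in *co-SAIL*, 64 in *35S::miP1a* and 46 in *35S::miP1b*. All 3 genotypes were below Col-0, *35S::miP1b* the furthest. The log2 change in *35S::miP1b* was -1.04 ± 0.31 (FDR 0.0083), against -0.48 ± 0.29 in *35S::miP1a* (FDR 0.318), and the difference between these lines, -0.56 ± 0.33, was not called (FDR 0.431). Sequence shared with other genes makes up 11.3% of its windows, so its reads are in part uncertain. *CYCB1;1* (AT4G37490), the common reporter of cells in G2 and mitosis, had 33, 27, 19 and 20 reads, with log2 changes of -0.76 ± 0.45 in *35S::miP1a* and -0.78 ± 0.44 in *35S::miP1b* that were not called (FDR 0.316 and 0.255).

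The other B-type cyclins had 4 to 65 reads per genotype. *CYCB2;4* (AT1G76310) had log2 changes of -0.38 ± 0.40 in *35S::miP1a* and -0.75 ± 0.42 in *35S::miP1b*. *CYCB1;4* (AT2G26760) had -0.05 ± 0.31 and -0.30 ± 0.31, *CYCB2;1* (AT2G17620) -0.18 ± 0.82 and -0.86 ± 0.92, and *CYCB2;3* (AT1G20610) -0.20 ± 0.44 and -0.17 ± 0.43. *CYCB1;3* (AT3G11520) and *CYCB2;2* (AT4G35620) lay below Col-0 in *35S::miP1a* (-0.23 ± 0.36 and -0.16 ± 0.46) and above it in *35S::miP1b* (0.26 ± 0.34 and 0.40 ± 0.42). None of these 6 genes was called in any comparison.

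The A1- and A2-type cyclins, which act from S phase to mitosis, did not move together. *CYCA1;1* (AT1G44110) had 71, 67, 41 and 50 reads, with log2 changes of -0.75 ± 0.33 in *35S::miP1a* and -0.55 ± 0.31 in *35S::miP1b* (FDR 0.135 and 0.265). *CYCA2;3* (AT1G15570), which in Arabidopsis is known to restrain endoreduplication, had 112, 137, 140 and 131 reads and lay above Col-0 in all 3 genotypes, by 0.42 ± 0.25, 0.37 ± 0.25 and 0.17 ± 0.25. *CYCA2;4* (AT1G80370) had 25, 23, 20 and 14 reads and *CYCA2;2* (AT5G11300) 20, 14, 21 and 16. Summed, these 5 cyclins came to 115.9%, 102.6% and 89.9% of Col-0.

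The B-type CDKs are the kinases specific to G2 and mitosis in plants. *CDKB1;1* (AT3G54180) had 43, 39, 28 and 42 reads, *CDKB1;2* (AT2G38620) 22, 23, 14 and 23, *CDKB2;1* (AT1G76540) 83, 85, 72 and 72, and *CDKB2;2* (AT1G20930) 40, 49, 40 and 46. Log2 changes in *35S::miP1a* were -0.59 ± 0.39 and -0.61 ± 0.52 for both *CDKB1* genes, while in *35S::miP1b* they were -0.09 ± 0.35 and 0.01 ± 0.46. None of the 4 genes was called in any comparison, and their sum came to 113.9%, 84.5% and 93.8% of Col-0. Genes on the opposite strand overlap 18.3% of the exon bases of *CDKB1;2* and 13.8% of those of *CDKB2;2*.

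The Aurora kinases act on chromosomes and the spindle in mitosis. *AUR3* (AT2G45490, chr2:18747509-18749215, minus strand, 6 exons), which in Arabidopsis phosphorylates histone H3, was the mitotic gene called in the other direction. It had 8 reads in Col-0, 20 in *co-SAIL*, 27 in *35S::miP1a* and 13 in *35S::miP1b*, so all 3 genotypes were above Col-0. The log2 change was 1.79 ± 0.60 in *35S::miP1a* (FDR 0.0195), 1.45 ± 0.62 in *co-SAIL* (FDR 0.223) and 0.64 ± 0.67 in *35S::miP1b* (FDR 0.581). These are few reads, and 10.4% of its exon bases are overlapped by a gene on the opposite strand. *AUR1* (AT4G32830) had 31, 25, 29 and 26 reads and *AUR2* (AT2G25880) 27, 27, 21 and 18, with no call. Genes on the opposite strand overlap 19.2% of the exon bases of *AUR1* and 36.9% of those of *AUR2*. The spindle checkpoint gene *MAD2* (AT3G25980), which delays anaphase, had 64, 63, 50 and 66 reads, again with no call.

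*CENH3* (AT1G01370) marks the centromere and *TOPII* (AT3G23890) untangles DNA. *CENH3* had 72, 78, 75 and 74 reads, with log2 changes of 0.25 ± 0.29 in *co-SAIL* and 0.10 ± 0.29 in *35S::miP1a* and no call. *TOPII* had 240, 204, 197 and 167 reads and a log2 change of -0.58 ± 0.22 in *35S::miP1b* (FDR 0.0641), -0.25 ± 0.22 in *35S::miP1a* and -0.11 ± 0.22 in *co-SAIL*.

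The D3-type cyclins, which couple cytokinin and growth to cell division in leaves, did not move as a group. *CYCD3;3* (AT3G50070, chr3:18565134-18566834, minus strand, 4 exons) had 203 reads in Col-0, 165 in *co-SAIL*, 345 in *35S::miP1a* and 327 in *35S::miP1b*. Both microProtein lines were high, and Col-0 and *co-SAIL* low. The log2 change was 0.81 ± 0.21 in *35S::miP1a* (1.75-fold higher, FDR 0.0026), 0.64 ± 0.21 in *35S::miP1b* (FDR 0.0243) and -0.17 ± 0.22 in *co-SAIL* (FDR 0.868). Between genotypes, *35S::miP1a* was 1.98-fold above *co-SAIL* (0.98 ± 0.22, FDR 0.00017) and *35S::miP1b* 1.75-fold above it (0.81 ± 0.22, FDR 0.0048). The first of these was not called with a dispersion of 0.04 (FDR 0.061) or 0.16 (FDR 1). The microProtein lines differed by -0.17 ± 0.20, with an interval from -0.57 to 0.22.

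*CYCD3;2* (AT5G67260, chr5:26836139-26839597, plus strand) had 942 reads in Col-0, 994 in *co-SAIL*, 1393 in *35S::miP1a* and 1254 in *35S::miP1b*. *35S::miP1a* was highest and Col-0 lowest. The log2 change was 0.61 ± 0.18 in *35S::miP1a* (FDR 0.0107), 0.36 ± 0.18 in *35S::miP1b* (FDR 0.175) and 0.21 ± 0.18 in *co-SAIL* (FDR 0.714). *CYCD3;1* (AT4G34160), the member that responds to cytokinin in Arabidopsis, had 285, 219, 217 and 261 reads, below Col-0 in all 3 genotypes (-0.25 ± 0.21, -0.35 ± 0.21 and -0.18 ± 0.21), with no call. Summed, the D3-type cyclins came to 105%, 141% and 124% of Col-0.

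Among the replication genes, the summed level of the MCM genes was 103.1 to 105.7% of Col-0 and that of the licensing genes 98.9 to 103.4%, while the A3-type cyclins lay above Col-0 and the sliding clamp genes below it in all 3 genotypes. *TSO2* lay below Col-0 in *co-SAIL* and *35S::miP1b*. The MCM genes encode the 6 subunits of the helicase that opens DNA at replication origins. *MCM2* (AT1G44900) had 777, 699, 800 and 939 reads, *MCM3* (AT5G46280) 846, 841, 900 and 909, *MCM4* (AT2G16440) 514, 473, 521 and 561, *MCM5* (AT2G07690) 412, 381, 434 and 442, *MCM6* (AT5G44635) 447, 447, 445 and 496, and *MCM7* (AT4G02060) 822, 764, 784 and 838. Their log2 changes ran from -0.03 to 0.22 over the 3 comparisons, with SE of at most 0.20. The largest of these changes, that of *MCM2* in *35S::miP1b*, was 0.22 ± 0.18 (FDR 0.471).

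The sliding clamp genes, whose product holds the polymerase on DNA, were below Col-0 in all 3 genotypes without being called. *PCNA1* (AT1G07370) had 818 reads in Col-0, 590 in *co-SAIL*, 615 in *35S::miP1a* and 614 in *35S::miP1b*, with log2 changes of -0.34 ± 0.18, -0.37 ± 0.18 and -0.47 ± 0.18 (FDR 0.450, 0.212 and 0.0739). *PCNA2* (AT2G29570) had 1169, 916, 979 and 955, with -0.22 ± 0.18, -0.21 ± 0.18 and -0.34 ± 0.18. Of the exon bases of *PCNA2*, 23.6% are overlapped by a gene on the opposite strand. The sum of both was 82.8%, 82.6% and 76.2% of Col-0.

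Of the origin licensing genes, which load the MCM helicase, *CDC6* (AT2G29680) had 86, 95, 106 and 122 reads and *CDT1A* (AT2G31270) 512, 471, 467 and 493, and neither was called. The A3-type cyclins *CYCA3;1* (AT5G43080, 247, 233, 309 and 281 reads) and *CYCA3;2* (AT1G47210, 921, 862, 1011 and 1061) lay at or above Col-0, by 0.03 to 0.37 on the log2 scale. *TSO2* (AT3G27060, chr3:9979841-9981620, minus strand), the small subunit of ribonucleotide reductase that makes DNA precursors, had 8458 reads in Col-0, 6180 in *co-SAIL*, 8732 in *35S::miP1a* and 6476 in *35S::miP1b*. Col-0 and *35S::miP1a* were high and the others low. It stood at 79.8%, 106.3% and 73.9% of Col-0. Against Col-0 it was not called, with -0.33 ± 0.17, 0.09 ± 0.17 and -0.44 ± 0.17. Directly compared, *35S::miP1b* lay below *35S::miP1a*, with a log2 difference of -0.53 ± 0.17 (FDR 0.0302).

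Tested between genotypes at an FDR below 0.001, 1 of the 43 genes differed between *35S::miP1a* and *co-SAIL*, the D3-type cyclin AT3G50070, which was higher (background 2.4% higher and 0.97% lower). Between *35S::miP1b* and *co-SAIL* 0 genes were called (0.574% higher, 1.94% lower), and 4 lower and 1 higher had an unadjusted p under 0.05. Of all 21960 genes, 2494 lower and 1655 higher had such a p in that comparison. Between *35S::miP1b* and *35S::miP1a* 0 genes were called (0.323% higher, 2.89% lower), and 3 lower and 0 higher had an unadjusted p under 0.05. For this pair 2108 lower and 1187 higher of all 21960 genes had such a p. At an FDR below 0.05, *KNOLLE* was lower and AT3G50070 higher in *35S::miP1a* than in *co-SAIL* (background 3.3% and 4.98%), and the same genes in the same directions in *35S::miP1b* (5.45% and 2.39%). Between the microProtein lines *TSO2* was lower in *35S::miP1b* (background 5.14% lower and 1.35% higher). Of the mitotic genes 16 of 25 lay below *co-SAIL* in *35S::miP1a* and 23 of 25 in *35S::miP1b*, with medians of -0.32 and -0.23. Of the S-phase genes 4 and 7 of 13 did, with medians of 0.05 and -0.03. Among all genes with at least 1 CPM, 50.9% and 49.0% lay below *co-SAIL*. These comparisons share the *co-SAIL* libraries.

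Further genes of the pathway were read in the same way, from lists set by function with earlier results of these data known. Their counts are a description and give no independent support. Of 7 other mitosis genes, 7 lay below Col-0 in *35S::miP1a* and 7 in *35S::miP1b*, with medians of -0.59 and -0.70. In *co-SAIL* 3 of 7 did, with a median of 0.04. Among all genes with at least 1 CPM, 51.3% (*35S::miP1a*), 49.5% (*35S::miP1b*) and 49.5% (*co-SAIL*) lay below Col-0. Of the 7 mitosis genes, *MAP65-3*, which bundles microtubules at the division plane, was lower at an FDR below 0.05. It had 100, 72, 51 and 47 reads and log2 changes of -0.94 ± 0.30 (FDR 0.021) and -1.15 ± 0.30 (FDR 0.0023) in the microProtein lines. At that FDR 4.59% of all genes were lower in *35S::miP1a* and 8.09% in *35S::miP1b*. The summed level of these 7 genes was 95.7%, 70.5% and 74.9% of Col-0.

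Of 14 other replication genes *CDT1B*, the second copy of the licensing factor, was called at an FDR below 0.001, with 78, 60, 37 and 28 reads and a log2 change of -1.53 ± 0.36 in *35S::miP1b* (FDR 0.00024), against -1.03 ± 0.33 in *35S::miP1a* (FDR 0.023). The other 13 were not called at an FDR below 0.05 against Col-0. Over all genes, 3.7% were lower in *35S::miP1b* at an FDR below 0.001. At an FDR below 0.05, 4.59% were lower in *35S::miP1a* and 8.09% in *35S::miP1b*. Of 18 other cyclins and CDKs 1 was lower in *35S::miP1a* at an FDR below 0.05, the D-type cyclin AT4G03270 (52, 51, 21 and 31 reads, -1.27 ± 0.41, FDR 0.018). Of 15 inhibitors and exit factors *KRP7* was lower in *35S::miP1a* (-1.01 ± 0.26, FDR 0.0023) and *KRP6* in *35S::miP1b* (-0.69 ± 0.21, FDR 0.011), both members of the family of CDK inhibitors. Of the 12 E2F, DP and MYB3R factors 0 were called, and they summed to 88.3 CPM in Col-0, 86.1 in *co-SAIL*, 90.8 in *35S::miP1a* and 83.9 in *35S::miP1b*. *MYB3R2* and an A3-type cyclin (AT1G47220) were not listed.

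**Figure D5:**
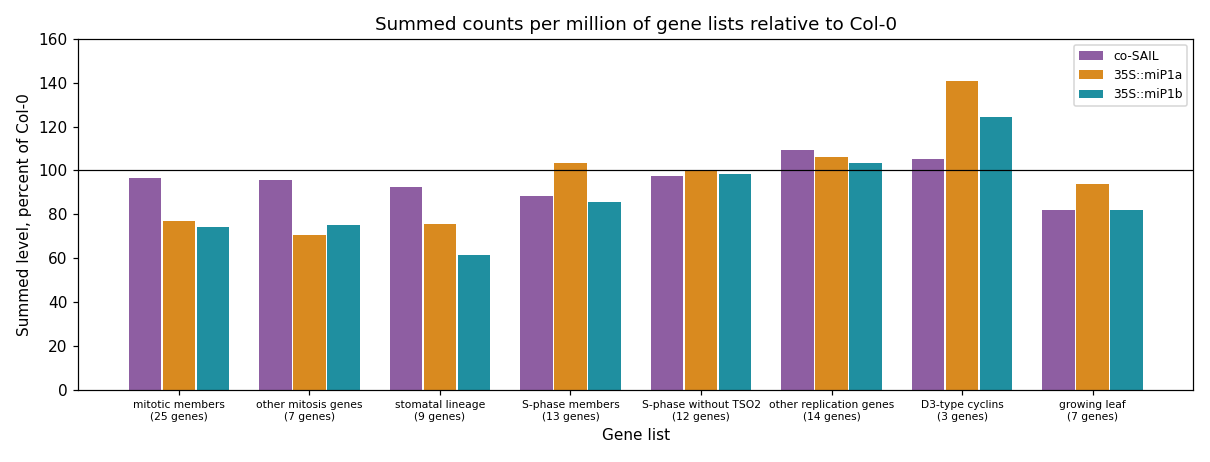
Summed CPM of 8 gene lists (x axis) as a percentage of the sum in Col-0 (y axis), with 1 bar for co-SAIL, 35S::miP1a and 35S::miP1b and a line at 100. Mitotic members are at 77.1% and 74.0% in the microProtein lines, stomatal lineage markers at 75.3% and 61.5%, and S-phase members without TSO2 at 100.3% and 98.2%.

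Most markers of the stomatal lineage lay below Col-0 in the microProtein lines, as did most mitotic genes. Below Col-0 were 7 of the 9 in *co-SAIL*, 8 in *35S::miP1a* and 9 in *35S::miP1b*. The 2 lists differed between the microProtein lines. There the median log2 difference of *35S::miP1b* against *35S::miP1a* was -1.18 for the stomatal markers and -0.10 for the mitotic genes. The 9 stomatal lineage markers summed to 48.5 CPM in Col-0, 44.9 in *co-SAIL*, 36.5 in *35S::miP1a* and 29.8 in *35S::miP1b*, and without *FAMA*, the most abundant, to 19.0, 20.0, 10.2 and 3.71 CPM. At an FDR below 0.001, 4 of the 9 were lower in *35S::miP1a* (*MUTE*, *EPF2*, *SDD1* and *POLAR*), 6 in *35S::miP1b* (also *SPCH* and *TMM*) and 0 in *co-SAIL*. Over all genes 1.44%, 3.7% and 0.988% were lower in these genotypes. The marker list was also chosen with earlier results of these data known. *MUTE* had 46, 28, 8 and 0 reads and *EPF2* 39, 26, 2 and 0. Of the 7 listed markers of growing leaves, 2 had at most 3 reads in both genotypes of a comparison with Col-0. Of the rest, 3 lay below and 2 above Col-0 in *35S::miP1a*, and 4 below and 1 above in *35S::miP1b*. The growing leaf marker *GRF3* had 89, 75, 35 and 32 reads. It was lower in *35S::miP1a* (-1.29 ± 0.33, FDR 0.0017) and *35S::miP1b* (-1.53 ± 0.34, FDR 9.2e-05), while the list summed to 82.1%, 93.8% and 82.0% of Col-0. Of the 5 leaf markers, 3 (the *RBCS* genes) were not called at an FDR below 0.05. *LHCB1.1* was higher than Col-0 in *co-SAIL* (0.73 ± 0.17, FDR 0.0014) and *35S::miP1a* (1.29 ± 0.17, FDR 8.3e-12) but lower in *35S::miP1b* (-0.55 ± 0.17, FDR 0.014). Between the microProtein lines it was lower in *35S::miP1b* by a log2 difference of -1.84 ± 0.17 (FDR 8.4e-24). *LHCB2.1* was higher in all 3 genotypes (0.70 ± 0.18, 1.41 ± 0.18 and 0.71 ± 0.18, FDR 0.0067, 9.7e-13 and 0.0017). The part of these cell types in the level of the mitotic genes was not tested.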

How the data were processed

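RNA-Seq of 8 leaf libraries (4 genotypes, 2 libraries each) was analysed from 3 tables. Per the labels and the methods of the study, the authors used Trimmomatic 0.32, mapped with Bowtie to TAIR10, counted reads per gene and fitted edgeR 2.6.12. The deposited log2 values are the ratio of Col-0 to a genotype and the mean log2 CPM, the deposited score is a likelihood ratio, and the deposited p-values and FDR were not used. None of these comparison values is printed. Reads per genotype were recovered by inverting the log2 values with a total prior count of 0.5, with library sizes from 353 genes that have 1 read. Within 0.1 of a whole number lay 100% of values for genes under 20 reads, 93.7% from 20 to 100, 44.5% from 100 to 500 and 43.6% for the 43 genes, so larger counts are rounded estimates. The deposited likelihood ratios gave the dispersion of 0.0133 and matched the recomputed ones within 2% in 99.99% of 10060 cases.

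A negative binomial likelihood ratio test (1 degree of freedom) with Benjamini-Hochberg adjustment over 21960 genes was run for 6 comparisons, and the script was tested on simulated data. Genes were called at an FDR below 0.001, the FDR part of the study's threshold, and below 0.05. The 4-fold minimum that the study asked for beside it was an alternative. Counts of 3 or fewer were set to 3 for log2 changes. The members and lists were chosen with earlier results of these data known. All 43 genes are named, with full values for those called against Col-0 and for the extremes of level. Of the other lists, *CDT1B* met the rule (FDR below 0.001 and 2-fold), and the other genes named there and among the markers were chosen after their values were seen. Gene models are those of RefSeq TAIR10.1, where 21912 genes matched by locus tag. The upstream window of 1 gene is not reported here. Alternatives were dispersions of 0.04 and 0.16, 2-fold and 4-fold minima, a 1 CPM filter, centring on genes with at least 10 CPM, and other assignments to classes. Scripts ran in Python 3.11.15 (pandas 2.3.3, NumPy 2.4.6, SciPy 1.17.1 and matplotlib 3.10.9). Values of single libraries were not analysed here.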

Additional observations from a re-analysis of the deposited data

Results flagged for a closer look

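*CYCD3;3* differed between genotypes that were each compared with Col-0. It lay above Col-0 in *35S::miP1a* and below it in *co-SAIL*, and the direct comparison of *35S::miP1a* with *co-SAIL* gave a log2 difference of 0.98 ± 0.22 (345 against 165 reads, FDR 0.00017 by the negative binomial likelihood ratio test over all genes).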

How the results depend on the processing

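No paired analysis was possible because the tables hold 1 value per genotype, and for the same reason leaving out each replicate was not run. At an FDR below 0.05 the genes called numbered 1 in *co-SAIL*, 5 in *35S::miP1a* and 5 in *35S::miP1b* against Col-0, 2 in *35S::miP1a* and 2 in *35S::miP1b* against *co-SAIL*, and 1 between the microProtein lines. With dispersions of 0.04 and 0.16, and with a 4-fold minimum, 0 genes were called for *35S::miP1a* and *35S::miP1b* against Col-0 and for *35S::miP1a* against *co-SAIL*. A 2-fold minimum left 0 for the last of these. *CDC20.1* in *35S::miP1a* had an FDR of 0.0092 at a dispersion of 0.04 and 0.740 at 0.16, and *CYCD3;3* against *co-SAIL* 0.061 and 1. For *HINKEL* in *35S::miP1b* these were 0.048 and 1. The common dispersion of the main setting reproduced nearly all deposited likelihood ratios, so variability between genes was not measured. When the dispersion was solved from each likelihood ratio, the 95th percentile of the solutions was 0.0134. Using it was chosen after seeing the data, as was the sum of the *CDC20* pair. At 0.0134 *HINKEL* had an FDR of 0.00103 and 0 genes were called in *35S::miP1b*. That setting shows only how near *HINKEL* lies to the threshold and does not test a larger variability of single genes. Under each alternative tried, the medians of mitotic and S-phase genes moved by less than the median SE of a single gene of the class. That SE is not an error of the median. For the mitotic genes the medians ran from -0.45 to -0.23 in *35S::miP1a* and from -0.33 to -0.26 in *35S::miP1b*, against -0.30 in the main setting for both. Centring moved changes by at most 0.03 on the log2 scale. Genes under 20 reads in a genotype, such as *AUR3* and *CYCA2;1*, are limited by depth.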
